A study of Glycine max with 12 samples.

Results

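Chalcone isomerase (CHI) and isoflavone synthase (IFS) catalyse the steps that lead from chalcones to isoflavonoids in legumes. The genes described here are 6 of the 43517 in the count table of soybean roots, 4 chalcone isomerases (CHI1A, CHI1B1, CHI2 and CHI1B2) and 2 isoflavone synthases (IFS1 and IFS2). They were chosen by gene identity, not by their levels, although earlier results of these data were known at the time. RNA from roots was sequenced in 12 libraries. OX3 roots were given 50 µM MnSO4, the manganese (Mn) treatment, in 3 libraries and 5 µM MnSO4, the control, in another 3. W roots at 50 µM and at 5 µM made up 3 libraries each. The authors' tables head the OX3 columns OX and the W columns WT. The labels give no plant age, growth condition or altered gene for either material, and they do not say whether libraries came from separate plants, so the spread between libraries may be technical.

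Chalcone isomerase closes the ring of a chalcone to give a flavanone. The forms called type II, found mainly in legumes, also accept the deoxychalcone that leads to daidzein, whereas type I forms accept naringenin chalcone. In soybean CHI1A, CHI1B1 and CHI1B2 are known as type II enzymes and CHI2 as a type I enzyme. Isoflavone synthase is a cytochrome P450 that moves the aryl ring of a flavanone, which commits it to isoflavonoids. In roots these compounds act as signals to rhizobia and as precursors of the glyceollins, which are defence compounds.

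CHI1A, CHI1B1 and CHI2 carry consecutive identifiers, Glyma.20G241500.Wm82.a2.v1, Glyma.20G241600.Wm82.a2.v1 and Glyma.20G241700.Wm82.a2.v1, on chromosome 20. CHI1B2 is Glyma.10G292200.Wm82.a2.v1 on chromosome 10, IFS1 is Glyma.07G202300.Wm82.a2.v1 on chromosome 7 and IFS2 is Glyma.13G173500.Wm82.a2.v1 on chromosome 13. The ending Wm82.a2.v1, carried by every identifier, names the annotation. RefSeq's table for the assembly Glycine_max_v4.0 has symbols for all 6 on the same chromosomes, with CHI2 written CHI2-A, and places no other gene between the 3 on chromosome 20. That table cannot be joined to the identifiers, since 0 of the 43517 matched. Its synonyms cross over: IFS2 is a synonym of IFS1, IFS1 a synonym of IFS2, and CHI2 a synonym of CHI1B1. The names here follow the identifiers just given. Other enzymes of the pathway and markers of roots, shoots or nodules were not analysed here, because identifiers could not be paired with names.

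Total counts per library ranged from 15175866 to 19408318. W control replicate 2 lay apart from its group. On the first principal component of all tested genes, which held 33.7% of the variance, it was at -107.2, beside OX3 control replicate 2 at -107.1, while W control replicates 3 and 4 were at -1.2 and 35.3. OX3 replicate 4 at 50 µM was at -16.8, against 60.7 and 35.6 for the other OX3 libraries of that treatment. Several results moved when one of them was left out, and values without it are given beside those results. In whole roots, fewer cells of a type and less RNA per cell cannot be told apart.

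Levels are the authors' FPKM, the count scaled to gene length and library total, which can be compared between genes. CHI1A was the main isomerase transcript in all 12 libraries, between 30.4 and 304.8 FPKM. At 50 µM the OX3 libraries had 67.0, 215.9 and 96.6 FPKM, against 304.8, 142.4 and 70.9 FPKM in OX3 at 5 µM (replicates 2, 3 and 4 in both groups). W had 91.0, 34.4 and 55.3 FPKM at 50 µM (replicates 1, 2 and 3), against 172.7, 33.3 and 30.4 FPKM at 5 µM (replicates 2, 3 and 4). Each treatment overlapped its control, and the highest library of each material was control replicate 2. CHI1A exceeded its neighbour CHI1B1 by between 2 and 9.78 times within a library, with a median of 6.01.

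CHI1B1 had 14.1, 22.1 and 15.4 FPKM in OX3 at 50 µM, against 54.8, 23.6 and 35.4 FPKM in OX3 at 5 µM. The OX3 treatments did not overlap, with the lowest control just above the highest library at 50 µM. W libraries had 13.6, 4.46 and 12.3 FPKM at 50 µM, against 44.5, 4.96 and 5.09 FPKM at 5 µM. In W, control replicate 2 was far above the other control libraries, which lay with the lowest library at 50 µM.

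CHI1B2, the copy on chromosome 10, had 6.66, 9.22 and 7.68 FPKM in OX3 at 50 µM, against 16.4, 6.96 and 15.3 FPKM in OX3 at 5 µM. W libraries had 7.26, 6.51 and 1.78 FPKM at 50 µM, against 15.2, 1.10 and 4.65 FPKM at 5 µM. All groups compared overlapped, and control replicate 2 again had the highest FPKM in each material. CHI2, the type I gene beside CHI1A and CHI1B1, was close to the limit of detection, with 0 to 32 counts per library and at most 1.46 FPKM. It had 9, 8 and 2 counts in OX3 at 50 µM, against 32, 13 and 9 in OX3 at 5 µM, and 18, 2 and 1 in W at 50 µM, against 31, 5 and 0 in W at 5 µM. The count of 0 allows up to 0.181 CPM (counts scaled to the library total) in that library, covering counting error only.

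IFS1 was the highest of the 6 genes in 9 of 12 libraries and ranked between 143 and 787 among the 40214 genes with an FPKM value. It had 207.8, 278.3 and 366.4 FPKM in OX3 at 50 µM, against 302.0, 303.6 and 444.7 FPKM in OX3 at 5 µM. W libraries had 229.3, 167.6 and 140.5 FPKM at 50 µM, against 365.7, 280.9 and 261.0 FPKM at 5 µM. The W treatments did not overlap, with every library at 50 µM below every control, while the OX3 treatments did overlap.

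IFS2 varied more than IFS1, between 55.3 and 388.5 FPKM, and both extremes were OX3 libraries at 50 µM. That group had 55.3, 388.5 and 142.5 FPKM, against 262.6, 177.5 and 61.1 FPKM in OX3 at 5 µM. W libraries had 167.4, 105.2 and 171.6 FPKM at 50 µM, against 106.9, 74.1 and 61.6 FPKM at 5 µM. In W the treatments met at 105.2 and 106.9 FPKM, and they did not overlap once libraries were scaled by TMM (trimmed mean of M-values), which allows for the makeup of each library. With that scaling CHI1B2 in OX3 was highest in control replicate 4, at 16.51 CPM, against 14.65 CPM in control replicate 2. IFS1 and IFS2 encode closely similar proteins, and how the authors assigned reads that match both is not stated, so the division of reads between them is uncertain, as it is between CHI1B1 and CHI1B2.

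**Figure D1:**
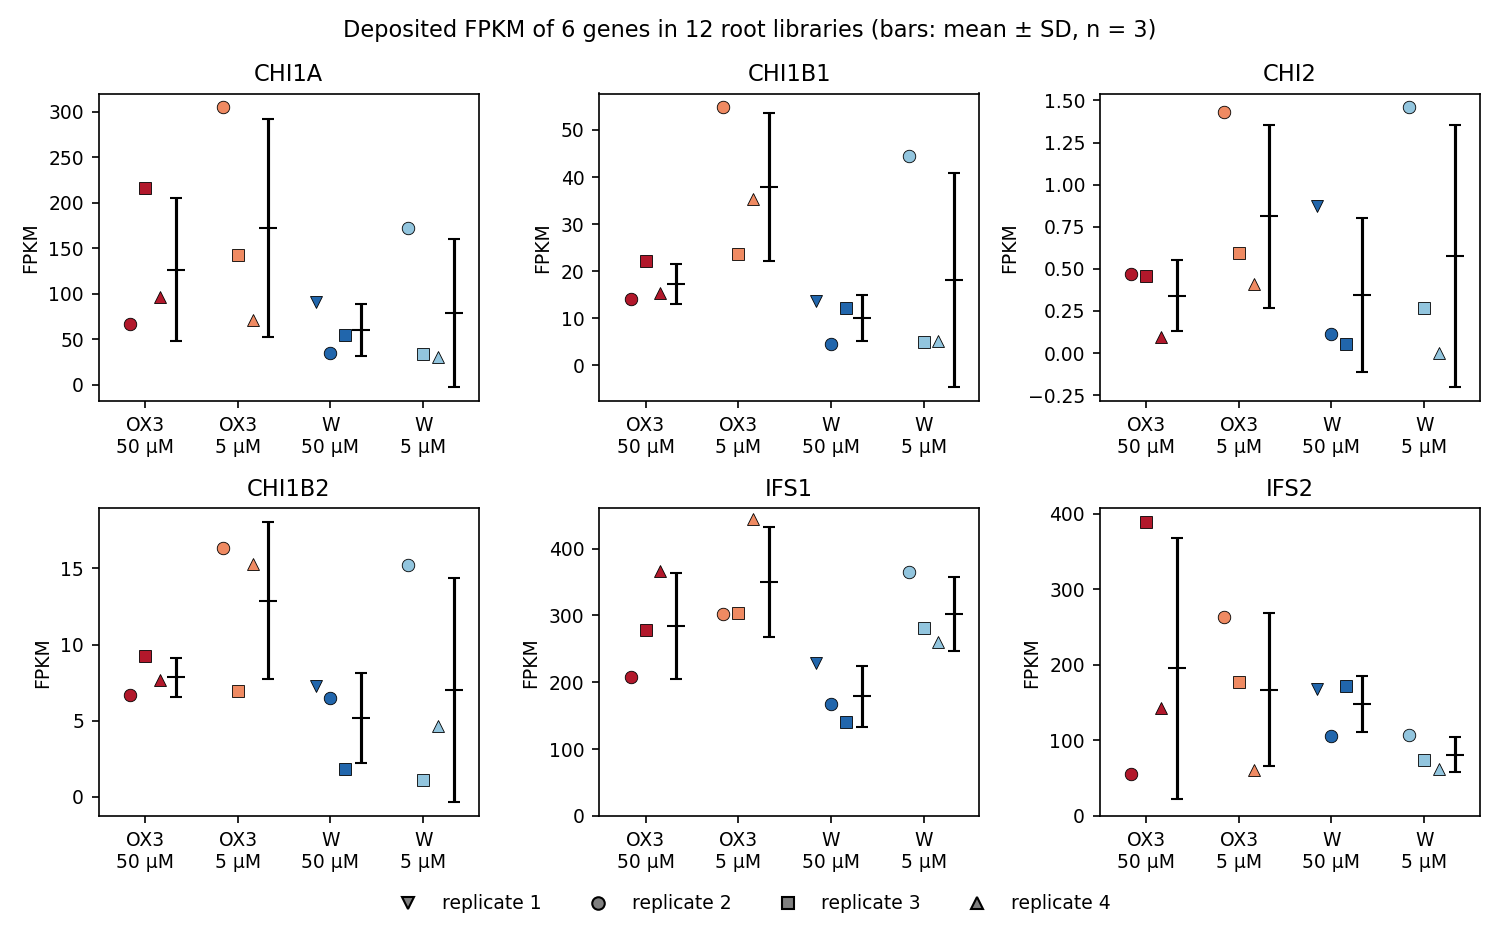
FPKM (vertical axis, from the authors' table) of each gene in the 12 libraries, by group; marker shape gives the replicate number, and the bar at the right of each group is the mean ± SD of 3 libraries, which reaches under 0 where 1 library is far above the others. Control replicate 2 of W and of OX3 stands at the top of its group for CHI1A, CHI1B1, CHI2 and CHI1B2, whereas IFS1 in W is lower in all libraries at 50 µM (140.5 to 229.3 FPKM) than at 5 µM (261.0 to 365.7 FPKM).

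The mean FPKM of CHI1A was 126.5 ± 78.9 in OX3 at 50 µM, 172.7 ± 120 in OX3 at 5 µM, 60.2 ± 28.6 in W at 50 µM and 78.8 ± 81.3 in W at 5 µM (SD, n = 3 each). IFS1 stood at 284.2 ± 79.4, 350.1 ± 81.9, 179.2 ± 45.5 and 302.5 ± 55.6 FPKM in the same 4 groups (SD, n = 3 each). IFS2 stood at 195.4 ± 173, 167.1 ± 101, 148.1 ± 37.2 and 80.9 ± 23.4 FPKM in these groups (SD, n = 3 each). When the 4 groups of each gene were put in order of their means, neighbouring groups overlapped in every case but 1. The exception was CHI1B1, whose lowest OX3 library at 50 µM (14.1 FPKM) was just above the highest W library at 50 µM (13.6 FPKM). Neighbours were picked by the values compared, and the share over all genes was not computed. The count is therefore a description and shows nothing particular to these genes.

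The first comparison asked how each material differed between 50 and 5 µM MnSO4. All 6 genes were tested, in a fit over 31841 genes. In W, 0 of the 6 passed the threshold in edgeR's quasi-likelihood test, an adjusted p of 0.05, where 0.00314% of all tested genes passed; 0 of the 6 also had an unadjusted p under 0.05, against 18.6% of all genes. IFS1 had a log2 fold change of -0.63 (SE 0.33; 95% interval from -1.35 to 0.09; adjusted p = 0.325 in edgeR's test), with no overlap between the treatments. IFS2 had a log2 fold change of 1.03 (SE 0.60; interval from -0.27 to 2.33; adjusted p = 0.369 in edgeR's test), also with no overlap in TMM-scaled CPM. Lower levels without overlap were found in 13% of all tested genes and higher levels without overlap in 11.3%, so 1 gene of 6 in either direction was near the background.

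The isomerases in W had log2 fold changes of -0.12 for CHI1A, -0.53 for CHI1B1, -0.17 for CHI1B2 and -0.48 for CHI2, with SEs from 0.64 to 1.15 and adjusted p-values in edgeR's test from 0.692 to 0.939. These signs rested on W control replicate 2. Without that library the values were 0.87, 0.98, 0.83 and 1.27 in the same order, with adjusted p-values from 0.332 to 0.66. Leaving out a W library at 50 µM also turned a sign, to 0.15 for CHI1A without replicate 2, and to 0.22 for CHI1B2 and 0.01 for CHI2 without replicate 3. The IFS values without W control replicate 2 were close to those with it, -0.64 for IFS1 and 1.09 for IFS2.

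In OX3, 0 of the 6 passed in edgeR's test, where 0% of all tested genes passed, and 0 of the 6 had an unadjusted p under 0.05, against 15% of all genes. CHI1B1 had the lowest log2 fold change after the sparsely counted CHI2 (-1.02, SE 1.14), at -0.96 (SE 0.66; interval from -2.39 to 0.48; adjusted p = 0.505 in edgeR's test). Its treatments did not overlap, as for 11.7% of all tested genes in that direction, and 9.39% in the other. CHI1A and CHI1B2 had log2 fold changes of -0.25 and -0.54. Without OX3 replicate 4 at 50 µM the values were -0.10 for CHI1A, -0.57 for CHI2 and -0.38 for IFS1. For IFS1 the value was -0.16 (SE 0.33) and for IFS2 it was 0.39 (SE 0.59). The sign for IFS2 rested on OX3 replicate 3 at 50 µM, its highest library, without which the value was -0.51. For CHI1A it was 0.30 without OX3 control replicate 2, its highest library, and 0.02 without OX3 replicate 2 at 50 µM, its lowest, and for IFS1 it was 0.13 without OX3 control replicate 4, its highest library.

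**Figure D2:**
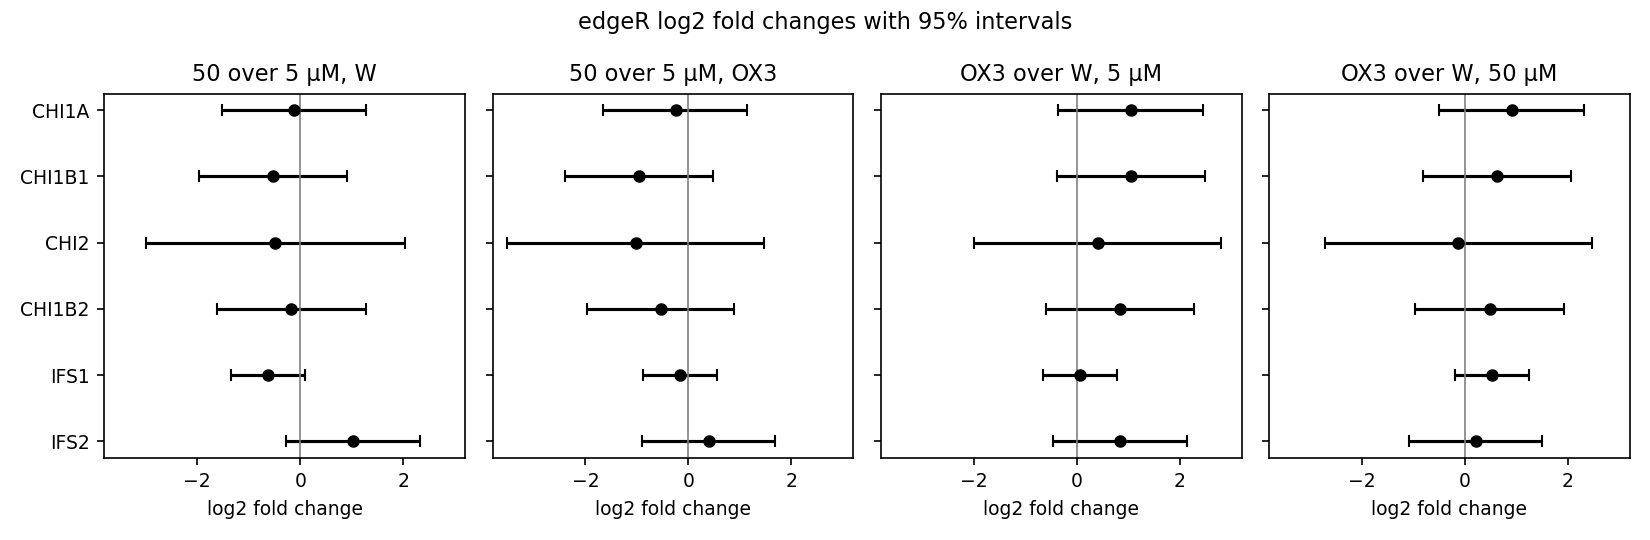
Log2 fold change of each gene (horizontal axis) in 4 comparisons, from edgeR's fit over all 12 libraries; points are estimates and bars are 95% intervals, with 0 marked by a line. Every interval includes 0, and the narrowest are those of IFS1, from -1.35 to 0.09 for 50 against 5 µM in W.

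Over both materials, 0 of the 6 passed in edgeR's test, where 2.32% of all tested genes passed, and 0 of the 6 had an unadjusted p under 0.05, against 24.9% of all genes. The 740 genes behind that share numbered 1806 without OX3 replicate 4 at 50 µM, 1721 without OX3 control replicate 4 and 1842 without W control replicate 4. Leaving out any other single library gave between 0 and 3. The log2 fold changes were 0.71 (SE 0.42) for IFS2 and -0.39 (SE 0.23) for IFS1, with adjusted p-values of 0.311 and 0.312 in edgeR's test. Without OX3 replicate 3 at 50 µM the value for IFS2 was 0.26, and without OX3 control replicate 4 that for IFS1 was -0.25. The isomerases lay between -0.75 for CHI2 and -0.19 for CHI1A. Without W control replicate 2 they lay between 0.01 for CHI1B1 and 0.31 for CHI1A, and CHI1A was at 0.09 without OX3 control replicate 2. The median over the 6 genes was -0.38, beside -0.04 over all tested genes. No gene of the 6 had all libraries at 50 µM on one side of all libraries at 5 µM, as 0.948% of all tested genes had with higher levels and 1.13% with lower levels at 50 µM.

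Whether the response differed between materials was tested as an interaction, in which the OX3 response had the W response subtracted. In edgeR's test 0 of the 6 genes passed, where 0.00314% of all tested genes passed, and 0 of the 6 had an unadjusted p under 0.05, against 7.55% of all genes. The difference was 0.47 on the log2 scale (SE 0.46) for IFS1 and -0.64 (SE 0.83) for IFS2, with adjusted p-values of 0.839 and 0.89. For CHI1B1 it was -0.43, and -1.93 without W control replicate 2 (adjusted p = 0.352 in edgeR's test). Without that library CHI1A was at -1.12, CHI1B2 at -1.37 and CHI2 at -2.29, against -0.14, -0.37 and -0.55 with it. The IFS1 difference was 0.26 without OX3 replicate 4 at 50 µM, and the IFS2 difference lay between -1.54 and -0.21 when single libraries were left out.

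The makeup of each step was compared as a share of summed FPKM, which does not depend on how libraries are scaled. IFS2 made up 21.0%, 58.3% and 28.0% of IFS transcript in OX3 at 50 µM, against 46.5%, 36.9% and 12.1% in OX3 at 5 µM. In W its share was 42.2%, 38.5% and 55.0% at 50 µM, against 22.6%, 20.9% and 19.1% at 5 µM. The W treatments did not overlap, and the W control libraries, replicate 2 included, lay close together. The OX3 libraries of either treatment were spread widely and overlapped.

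In W the mean IFS2 share was 45.2 ± 8.63% at 50 µM and 20.9 ± 1.76% at 5 µM (SD, n = 3 each), a difference of 24.4 percentage points. The exact two-sided permutation test gave p = 0.1, the smallest that 3 libraries against 3 allow. This was fixed once IFS1 was lower and IFS2 higher in every W library at 50 µM in TMM-scaled CPM. The p and the lack of overlap in share therefore add nothing to those results. The background over other gene pairs was not computed. In OX3 the means were 35.8 ± 19.8% and 31.8 ± 17.8% (SD, n = 3 each), a difference of 3.93 percentage points (exact permutation p = 0.8). Over both materials, with libraries relabelled within each material, the difference was 14.2 percentage points (exact permutation p = 0.12, where 0.005 is the smallest possible). It was 8.52 without OX3 replicate 3 at 50 µM (exact permutation p = 0.355) and 9.21 without OX3 control replicate 4 (exact permutation p = 0.335). The summed FPKM of IFS1 and IFS2 in W was 327.2 ± 63.3 at 50 µM and 383.4 ± 78.9 at 5 µM (SD, n = 3 each), a difference smaller than either SD.

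CHI1A held between 58.1% and 87.2% of the summed CHI transcript. Its share averaged 81.2 ± 5.66% in OX3 at 50 µM and 73.7 ± 13.5% in OX3 at 5 µM, and 78.7 ± 2.69% in W at 50 µM and 77.9 ± 5.43% in W at 5 µM (SD, n = 3 each). The lowest share belonged to OX3 control replicate 4, where CHI1B1 made up 29.0%. Over both materials the CHI1A share differed between 50 and 5 µM by 4.2 percentage points (exact permutation p = 0.43), and by 0.319 once OX3 control replicate 4 was left out (exact permutation p = 0.93). The OX3 shares differed from the W shares by -0.831 percentage points for CHI1A (exact permutation p = 0.9) and 0.737 for IFS2 (exact permutation p = 0.94). Summed CHI transcript ranged from 39.6 to 377 FPKM. As ratios, CHI1A exceeded CHI1B2 by between 4.63 and 31 times.

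**Figure D3:**
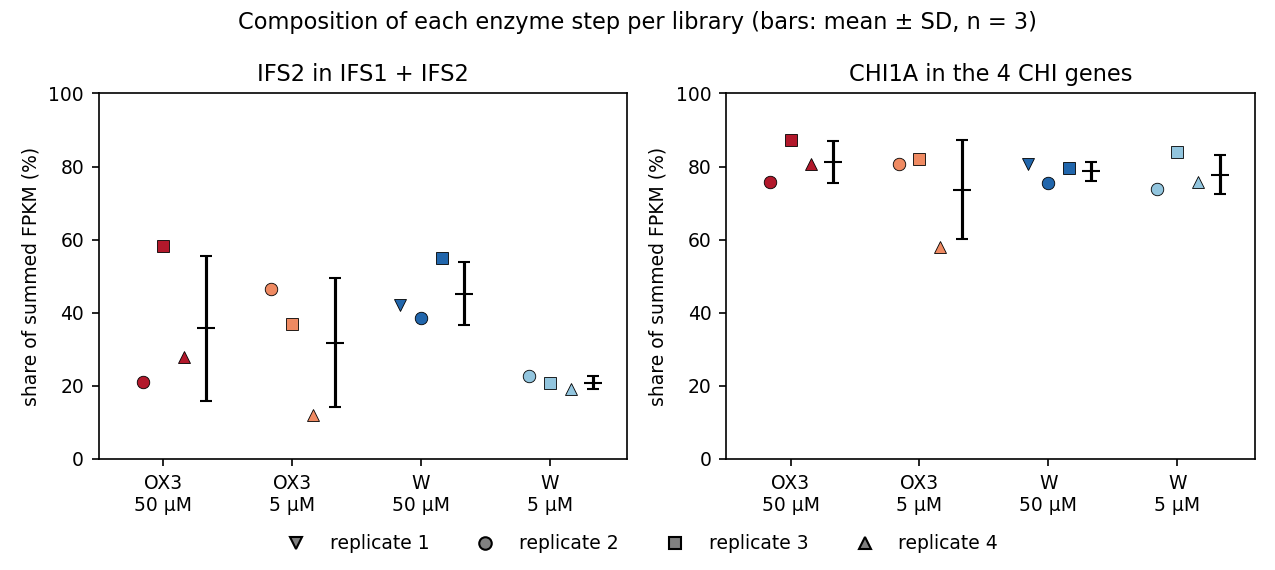
Share of summed FPKM (vertical axis, percent) held by IFS2 among the IFS genes and by CHI1A among the 4 CHI genes, per library and group; marker shape gives the replicate number, and bars are the mean ± SD of 3 libraries. The IFS2 share in W lies from 38.5% to 55.0% at 50 µM and from 19.1% to 22.6% at 5 µM, while the CHI1A share is above 58% in every library.

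The next comparison was OX3 against W at the same MnSO4 concentration. It shares libraries with the comparisons between treatments. At 5 µM, 0 of the 6 genes passed in edgeR's test, where 0.0126% of all tested genes passed, and 0 of the 6 had an unadjusted p under 0.05, against 10.2% of all genes. The log2 fold changes were positive for all 6, at 1.05 (SE 0.65) for CHI1A, 1.05 (SE 0.66) for CHI1B1, 0.85 for CHI1B2, 0.84 (SE 0.59) for IFS2, 0.41 for CHI2 and 0.06 (SE 0.33) for IFS1. Their median was 0.84, beside 0.05 over all tested genes, of which 53.9% were positive. The sign turned for IFS1 without OX3 control replicate 4, to -0.22. For CHI2 it turned to -0.16 without OX3 control replicate 2 and to -0.14 without W control replicate 4. Adjusted p-values in edgeR's test lay between 0.563 and 0.951. The materials overlapped for all 6, whereas 7.26% of all tested genes were higher and 6.02% lower in OX3 without overlap.

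At 5 µM the OX3 and W libraries of the same number varied together across genes. Compared within numbers, CHI1A, CHI1B1 and CHI1B2 were higher in OX3 in 3 of 3 pairs, as were 21.9% of all tested genes, while 20.8% were lower in all 3. The FPKM of CHI1A was 304.8 in OX3 and 172.7 in W for replicate 2, 142.4 and 33.3 for replicate 3, and 70.9 and 30.4 for replicate 4. CHI1B1 differed by 0.26, 1.89 and 2.61 and CHI1B2 by 0.06, 2.23 and 1.54 on the log2 CPM scale, OX3 minus W, for replicates 2, 3 and 4. The other members had mixed signs, with IFS1 at -0.31, -0.23 and 0.60, IFS2 at 1.26, 0.91 and -0.18 and CHI2 at -0.06, 0.66 and 2.33. A fit of all 12 libraries had the replicate number as a block over both treatments. Its adjusted p at 5 µM was 0.528 for CHI1A, 0.539 for CHI1B1 and 0.51 for CHI1B2 in edgeR's test. That fit was not a paired test of the 5 µM libraries alone. Without W control replicate 2, the log2 fold change was 2.02 for CHI1A (adjusted p = 0.123) and 2.54 for CHI1B1 (adjusted p = 0.0527), still short of the threshold in edgeR's test, where 0.31% of all genes passed. CHI1B2 was then at 1.83 and CHI2 at 2.14. In the other direction, CHI1A was at 0.47 and IFS2 at 0.46 without OX3 control replicate 2. CHI1B1 was at 0.65 without W control replicate 3 and 0.64 without W control replicate 4, and CHI1B2 at 0.37 without W control replicate 3.

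At 50 µM, 0 of the 6 genes passed in edgeR's test, where 0.0157% of all tested genes passed, and 0 of the 6 had an unadjusted p under 0.05, against 8.76% of all genes. The log2 fold change of OX3 over W was 0.91 (SE 0.64) for CHI1A, 0.62 (SE 0.66) for CHI1B1 and 0.53 (SE 0.33) for IFS1, with adjusted p-values of 0.678, 0.785 and 0.648 in edgeR's test. CHI1B1 was higher in each OX3 library than in each W library, as were 9.47% of all tested genes, and 7.41% were lower without overlap. The log2 fold change of IFS2 was 0.21 (SE 0.59; adjusted p = 0.93 in edgeR's test), and it was -0.70 without OX3 replicate 3 at 50 µM. Without that library CHI1A was at 0.36, without W replicate 2 at 50 µM CHI1B1 was at 0.27, and without OX3 replicate 4 at 50 µM IFS1 was at 0.30 and IFS2 at 0.36.

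Averaged over both treatments, edgeR's test of OX3 against W called 0 of the 6 genes, where 0.148% of all tested genes passed, and 0 of the 6 had an unadjusted p under 0.05, against 11.6% of all genes. No gene of the 6 had all OX3 libraries on one side of all W libraries, as 0.33% of all genes had with OX3 higher and 0.173% with OX3 lower. CHI1A had the smallest unadjusted p of the 6 (0.0532 in edgeR's test), with a log2 fold change of 0.98 (SE 0.46; interval from -0.02 to 1.98; adjusted p = 0.436). CHI1B1 had 0.84 (SE 0.47; adjusted p = 0.498) and IFS1 0.30 (SE 0.23; adjusted p = 0.604). Without W control replicate 2, CHI1B1 passed the threshold, with a log2 fold change of 1.57 (SE 0.29; adjusted p = 0.0321 in edgeR's test), where 1.79% of all genes passed. CHI1A then had 1.46 (SE 0.40; adjusted p = 0.0841), CHI1B2 1.15 and CHI2 1.00. Over all single libraries left out, the values lay between 0.63 and 1.57 for CHI1B1 and between 0.69 and 1.46 for CHI1A. With OX3 replicate 4 at 50 µM left out as well, CHI1B1 had 1.61 and an adjusted p of 0.0673. IFS1 was at 0.17 without that last library alone. Same-numbered OX3 and W libraries at 50 µM, of which there were 2 pairs, also varied together across genes (r = 0.16 and 0.30). Between treatments, same-numbered libraries had r of -0.19, -0.02 and -0.08 in OX3 and of 0.00 and 0.27 in W. A further fit blocked the replicate number over all 12 libraries and both treatments. W replicate 1 at 50 µM, the only library with its number, then had no weight in the fold changes. In that fit CHI1A had 1.36, CHI2 1.66 and CHI1B2 1.09. The unadjusted p-values were 0.0156, 0.0421 and 0.0361 and the adjusted ones 0.228, 0.311 and 0.298 in edgeR's test. The count under an unadjusted 0.05 was then 3 of 6, against 15.2% of all genes, and 0 of 6 passed after adjustment.

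The genes differed in how much they varied between libraries of a group. The SD of log2 CPM within groups was 0.31 for IFS1, smaller than the median of 0.39 over 25321 genes with a mean of at least 2 CPM. It was 0.84 for IFS2, 0.89 for CHI1A, 0.93 for CHI1B1 and 1.01 for CHI1B2, larger than in 89.8%, 91.3%, 92.5% and 94.2% of those genes. Differences between the 4 groups made up 52.4% of the sum of squares of log2 CPM for IFS1, 43.5% for CHI1B1, 33.9% for CHI1A, 28% for CHI1B2, 23.9% for IFS2 and 15.1% for CHI2, beside a median of 41.3% over tested genes. With 3 libraries a group, part of such a share arises even where groups do not differ.

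Whether the genes varied together was described by correlations of TMM-scaled log2 CPM over the 12 libraries, for all 15 pairs, with permutation tests adjusted over the 15. The tests compare each r with no correlation. The share past the threshold over all gene pairs was not computed, so the counts show nothing particular to these genes. CHI1A and CHI1B1 had a Pearson r of 0.84 (permutation p = 0.00078, adjusted 0.0117) and a Spearman rho of 0.82 (permutation p = 0.002, adjusted 0.03). Without the 2 libraries farthest from the median of CHI1A their r was 0.74, and for deviations from group means it was 0.79. This was the 1 pair past the threshold for r. It was lost without OX3 control replicate 2, the library highest in both genes, when 0 pairs passed, while 2 passed without W replicate 3 at 50 µM and 3 without W control replicate 3. The r of CHI1A and CHI1B1 was 0.76 without control replicate 2 of both OX3 and W, a value with no permutation test.

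CHI1A and IFS2 had r = 0.62 (permutation p = 0.0321, adjusted 0.0963) and rho = 0.57 (permutation p = 0.0565, adjusted 0.141). Their r was 0.72 for deviations from group means and 0.51 without the 2 libraries farthest from the median of CHI1A. In OX3 both genes had the same order of libraries in each treatment, with replicate 3 first and replicate 2 last at 50 µM, and replicate 2 first and replicate 4 last at 5 µM. The order was also shared in W at 5 µM, with replicate 2 first and replicate 4 last, but not in W at 50 µM. The share of all genes with the same orders as CHI1A was not computed, so these orders are descriptions. IFS1 and IFS2 had r = -0.39 (permutation p = 0.212, adjusted 0.398) and rho = -0.43 (permutation p = 0.163, adjusted 0.306), and r = -0.07 without the 2 libraries farthest from the median of IFS1. The pairwise r among the 4 isomerases lay between 0.49 and 0.84, and between 0.38 and 0.79 for deviations from group means. These correlations depend on scaling: on log2 CPM of the raw total 6 pairs passed and on log2(FPKM + 1) 7 pairs. The TMM factors were largest in the 2 control replicates numbered 2, at 1.25 in OX3 and 1.21 in W. Without both libraries r was 0.76 for CHI1A and CHI1B1, 0.69 for CHI1A and IFS2 and -0.36 for IFS1 and IFS2. Among the isomerases it was then lowest for CHI2 and CHI1B2, at 0.31. These values had no permutation test, and the part of the factors in the correlations was not tested.

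**Figure D4:**
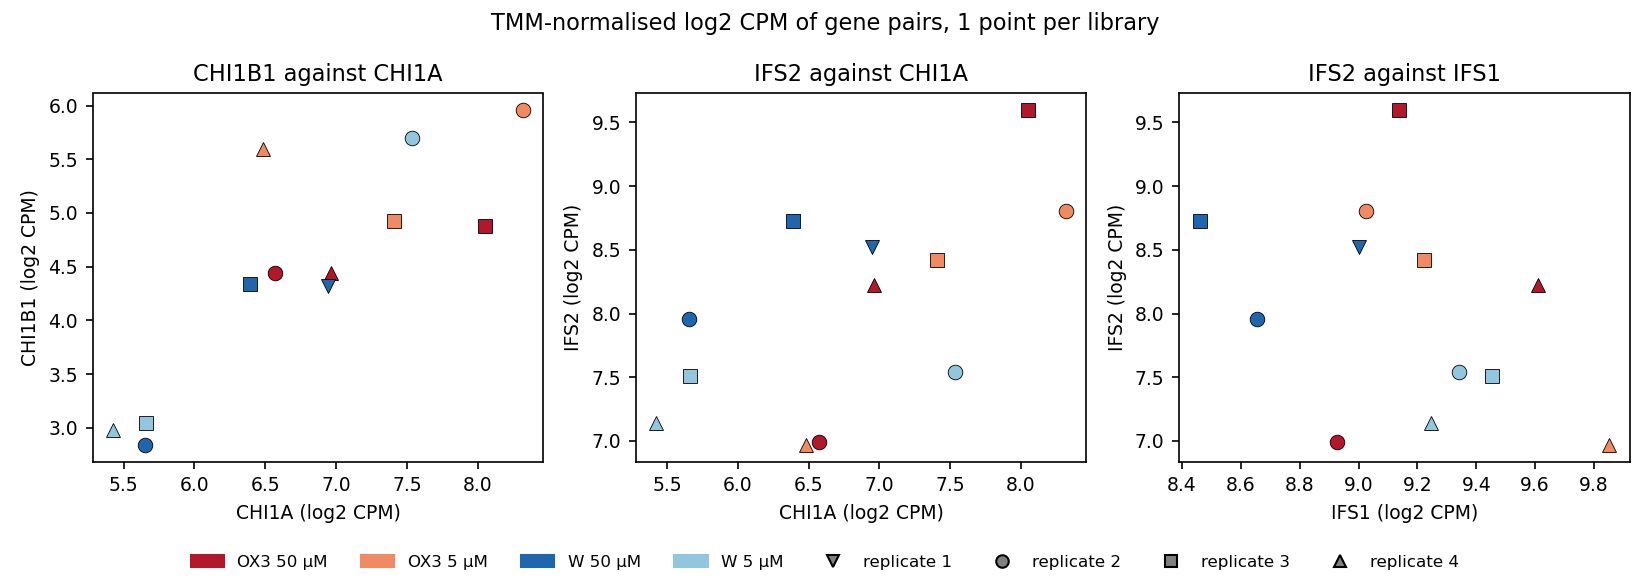
TMM-scaled log2 CPM of CHI1B1 against CHI1A, IFS2 against CHI1A and IFS2 against IFS1, 1 point per library; colour gives the group and marker shape the replicate number. CHI1A and CHI1B1 lie along a rising line (r = 0.84), IFS2 against CHI1A is looser (r = 0.62), and IFS2 against IFS1 slopes down weakly (r = -0.39).

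Genes with the most similar pattern were found by Pearson r of log2 CPM over the 12 libraries, among genes with a mean of at least 2 CPM. The closest to CHI1A was Glyma.06G036200 (r = 0.974), and CHI1B1 came at place 255 of 25320. The closest to CHI1B1 was Glyma.08G307800 (r = 0.962), to CHI1B2 Glyma.09G208000 (r = 0.984) and to CHI2 Glyma.12G200100 (r = 0.925). The closest to IFS1 was Glyma.03G224700 (r = 0.939) and to IFS2 Glyma.12G110600 (r = 0.944). No member of the 6 was among the 3 closest genes of another. With 12 libraries and this many genes, high values arise at the top of any such ranking, and the libraries share their scaling factors, so these r are descriptions.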

How the data were processed

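Root RNA of 12 libraries was measured by RNA-seq. The deposited tables hold read counts per gene and FPKM. The authors' FPKM equals the deposited count divided by a whole-number gene length and the column total. Bowtie2 2.2.3, HISAT2 2.1.0, TopHat2, HTSeq 0.6.0 and CASAVA are named, without roles, per the submitters' processing notes. The strand setting, the handling of shared reads and the genome build used for alignment are not given in the sources used here.

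Counts were fitted with edgeR 4.0.16 (R 4.3.3) by its quasi-likelihood test, over all 12 libraries as 4 groups, after edgeR's filter on low counts (31841 of 43517 genes, all 6 members included) and TMM scaling (factors 0.859 to 1.25). P-values were adjusted by Benjamini-Hochberg over all tested genes, with a threshold of 0.05, in 7 comparisons. Intervals are 95% and use the fit's 11.6 degrees of freedom. CPM for plots and correlations is log2 with a prior count of 2. Shares were compared by exact two-sided permutation, and correlations by 100000 permutations. Total counts ranged from 15175866 to 19408318. CHI2 had at most 32 counts and the widest spread between libraries of the 6. Alternatives were DESeq2 1.42.0, limma 3.58.1 on counts and on log2(FPKM + 1) or log2(FPKM + 0.1), other scalings and filters, the groups compared alone, a replicate block and leaving out each library. The scripts were tested on simulated data.

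The members and the lists were chosen with earlier results of these data known. The named genes are the members and, for each, the 3 genes with the highest r, of which the closest is printed. At 5 µM, deviations from the group means of same-numbered OX3 and W libraries correlated at 0.26, 0.45 and 0.27 across genes, each best with its own number, so the numbers were taken as pairs there. No label says what a number marks. The replicate block used the numbers over all 12 libraries and both treatments. Planned lists of pathway genes and tissue markers, motif searches and sequences were not run, since 0 identifiers matched the RefSeq table.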

Additional observations from a re-analysis of the deposited data

How the results depend on the processing

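No member tested passed the threshold in the 7 comparisons under DESeq2, limma, the other scalings and filters, or the replicate block, which changed no call of a member. CHI2 had no adjusted p by DESeq2 for 50 against 5 µM in W, at a minimum of 1 CPM in 6 libraries, or in 3 of the fits of the groups compared alone, so these cover 5 members. Leaving out single libraries gave 0 to 1 members past the threshold, the 1 being CHI1B1 for OX3 against W over both treatments without W control replicate 2. Leaving out W control replicate 2 and OX3 replicate 4 at 50 µM together, chosen after seeing the data, gave 0. Members with an unadjusted p under 0.05 numbered 0 to 3 over all alternatives. At 5 µM without W control replicate 2 they were CHI1A, CHI1B1 and CHI1B2, against 20.8% of all genes. For 50 against 5 µM in W, IFS1 was under 0.05 by DESeq2, against 21.7% of all genes. It also was on log2(FPKM + 1) (16.8%) and log2(FPKM + 0.1) (17.4%). In that comparison IFS2 was with the groups compared alone (17%), CHI2 with the replicate block (18.6%) and CHI1B1 without W control replicate 2 (14.9%). Of 793 log2 fold changes under alternatives, 736 kept their direction and side of the threshold, 56 turned sign and 1 came to pass. None of the members with a turned sign had passed, and the causes were not tested.

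For 50 against 5 µM in W, limma-voom gave 0.17 for CHI1A and 0.03 for CHI1B2, and log2(FPKM + 0.1) gave 0.02 for CHI1B2. The replicate block gave interactions of 0.57 for CHI1A and 1.37 for CHI2. For OX3 against W at 50 µM, CHI2 was 0.25 by limma-voom, 0.03 and 0.33 on log2(FPKM + 1) and log2(FPKM + 0.1), and 2.35 with the replicate block, and IFS2 was -0.14 by limma-voom. Without both doubted libraries, CHI1A, CHI1B1, CHI2 and CHI1B2 were 0.87, 0.98, 1.27 and 0.83 for 50 against 5 µM in W, and 0.39, 0.05, 0.35 and 0.15 over both materials, and CHI2 was 0.30 for OX3 against W at 50 µM. As a log2 ratio, the OX3 minus W difference was -0.00249 for IFS2 and 0.00138 for CHI1A.

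Leaving out single libraries gave these ranges where a sign turned. In W, 50 against 5 µM ranged from -0.47 to 0.87 for CHI1A, -0.93 to 0.98 for CHI1B1, -2.42 to 1.27 for CHI2 and -0.65 to 0.83 for CHI1B2. In OX3 it ranged from -0.81 to 0.30 for CHI1A, -0.38 to 0.13 for IFS1 and -0.51 to 0.82 for IFS2. Over both materials it ranged from -0.46 to 0.31 for CHI1A, -0.94 to 0.01 for CHI1B1, -1.72 to 0.12 for CHI2 and -0.59 to 0.14 for CHI1B2. The interaction ranged from -1.12 to 0.43 for CHI1A, -2.29 to 1.40 for CHI2 and -1.37 to 0.11 for CHI1B2. OX3 against W ranged at 5 µM from -0.16 to 2.14 for CHI2 and -0.22 to 0.21 for IFS1, at 50 µM from -0.61 to 1.81 for CHI2 and -0.70 to 0.63 for IFS2, and over both treatments from -0.15 to 1.11 for CHI2. The OX3 minus W share ranged from -4.89 to 5.67 percentage points for IFS2 and -2.93 to 3.05 for CHI1A. Correlated pairs numbered 6 on raw-total CPM, 7 on log2(FPKM + 1), and 0 to 3 without single libraries.

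Over all genes, DESeq2 called 1506 for 50 against 5 µM in W, 1071 in OX3 and 4045 over both, 68 for the interaction, and 217, 234 and 590 for OX3 against W at 5 µM, at 50 µM and over both. EdgeR called 1, 0, 740, 1, 4, 5 and 47 in that order, and 0, 0, 0, 0, 0, 0 and 11 with the replicate block. Limma-voom called 276 for 50 against 5 µM over both. On log2(FPKM + 0.1) the median over all genes lay between -0.191 and 0.22, and the cause was not tested.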
